A study of Mus musculus with 3 samples.

Results

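SR splicing factors are RNA-binding proteins whose carboxyl end is rich in serine and arginine. The genes described here are *Srsf1*, *Srsf2*, *Srsf3*, *Srsf4*, *Srsf5*, *Srsf6*, *Srsf7*, *Srsf9* and *Srsf11*. They were selected by gene symbol, and these 9 of the 26887 entries of gene name and chromosome in the series had counts in all 3 libraries. All libraries came from undifferentiated mouse E14 ES cells of strain 129/Ola, an embryonic stem cell line grown without feeder cells. The cells were fixed with glutaraldehyde, and lysates were hybridized with antisense oligonucleotides that pull down a chosen RNA together with the RNAs held to it (RIA-seq). The oligonucleotides were directed against *Actb* in Actb RIA-seq (the control library), against *Malat1* in Malat1 RIA-seq (the Malat1 library) and against *Tfrc* in Tfrc RIA-seq (the Tfrc library). Each condition had 1 library, so no spread between replicates could be measured, and any test here sets the reads of 2 libraries against each other rather than the conditions. No library of unselected RNA was analysed here, so more RNA held to a target cannot be told apart from more RNA carried over for another reason.

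SR proteins bind exonic sequences of pre-mRNAs and recruit the splicing machinery to nearby splice sites. They are stored in nuclear speckles, the compartment in which the long non-coding RNA *Malat1* resides, and *Malat1* is known to associate with SR proteins. The libraries report the RNAs that encode these proteins, not the proteins. SR genes are also known to regulate themselves: splicing of their own pre-mRNA can give a transcript with an early stop codon that is removed by nonsense-mediated decay.

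The annotation of build NCBIM37 holds transcripts labelled as nonsense-mediated decay (decay transcripts), with an annotated stop codon, for 4 of the genes. The sequences below show where their reading frames end, because these exons are annotated and reads from them cannot be told apart from those of the coding mRNA in a count per gene. Each runs 5′ to 3′ on the gene's strand, and the capitals mark the stop codon. They lie at chr11:87863488-87863517 (+) in *Srsf1*, chr11:116713342-116713371 (−) in *Srsf2*, chr17:29176403-29176432 (+) in *Srsf3*, and chr3:157687173-157687195 (−) and chr3:157686274-157686303 (−) in *Srsf11*.
Srsf1: aagagatggattaagaatgctttggatTAA
Srsf2: ccagaagaagagggagcagtttcttccTAA
Srsf3: accatcatgtctcttctcaccaccctcTGA
Srsf11, first stop: ttcttttccctggttcagccTGA
Srsf11, second stop: gttgttcataaaacagcttttgaaagtTGA
The *Srsf3* sequence lies in an exon of 456 bases (chr17:29176399-29176854) that shares 0 bases with the exons of coding transcripts. The other 4 exons lie wholly within sequence that coding transcripts also use. Whether the stop codons shown come earlier than those of the coding transcripts was not tested, and splice junctions were not compared.

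Depth was 10405209 counts in the control, 10078439 in the Malat1 library and 14553941 in the Tfrc library. A gene could have an Ensembl-ID count, listed under its Ensembl identifier, and a Genome count, listed under the reference name Genome, a term the sources used here do not define. Genome counts made up 5.25%, 19.0% and 15.1% of these libraries in the same order. The targeted RNAs checked the labels only in part. *Actb* had 73038 counts per 1000000 counts of the library (CPM) in the control and 889 and 924 in the target libraries, *Malat1* had 1834, 10657 and 7041 in the control, Malat1 and Tfrc libraries, and *Tfrc* had 43.5, 101 and 117. *Malat1* and *Tfrc* were thus each highest in their own library, but both were also raised over the control in the library aimed at the other. The 8 markers of pluripotent cells all had counts in every library and summed to 2983 to 4193 CPM. The fibroblast list summed to 18.9 to 21.9, the neural list to 22.4 to 26.9 and the endoderm list to 4.52, 12.9 and 9.21 CPM in the control, Malat1 and Tfrc libraries. Of the 5 endoderm markers, 3, 4 and 5 had counts, and *Afp* and *Foxa2* were at 0 in the control. The endoderm list was higher in both target libraries, as most SR genes were, and its part in the results was not tested.

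The first question was whether the RNAs of SR genes took a larger share of the target libraries than of the control. The 9 genes together had 11421 counts in the control, 17048 in the Malat1 library and 22791 in the Tfrc library, which is 1098, 1692 and 1566 CPM. Fold is the ratio of 2 such shares, with a 95% interval from the counts that covers counting error only. The family showed a 1.54-fold increase in the Malat1 library over the control (1.51 to 1.58) and a 1.43-fold increase in the Tfrc library over the control (1.40 to 1.46) as shares of the library total, but with the median fold of all genes set to 1 both turned, to 0.847 and 0.915. The median fold of all genes was 1.82 over 14572 genes that had 10 or more counts in each library of the first comparison and 1.56 over 14691 such genes in the second, a shift of 0.86 and 0.64 on the log2 scale. The median of the 9 SR genes was 1.54 and 1.37, and 6 of 9 lay under the median of all genes in each comparison. A fold of at least 2 was found for 2 of 9 SR genes in the Malat1 library over the control (*Srsf5* and *Srsf11*), against 42.1% of all genes, and for 0 of 9 in the Tfrc library over the control, against 28.6%. *Srsf5* and *Srsf11*, at 2.02 each, stood just past that fold and *Srsf4*, at 1.87, just under it. Both comparisons share the control library.

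**Figure D1:**
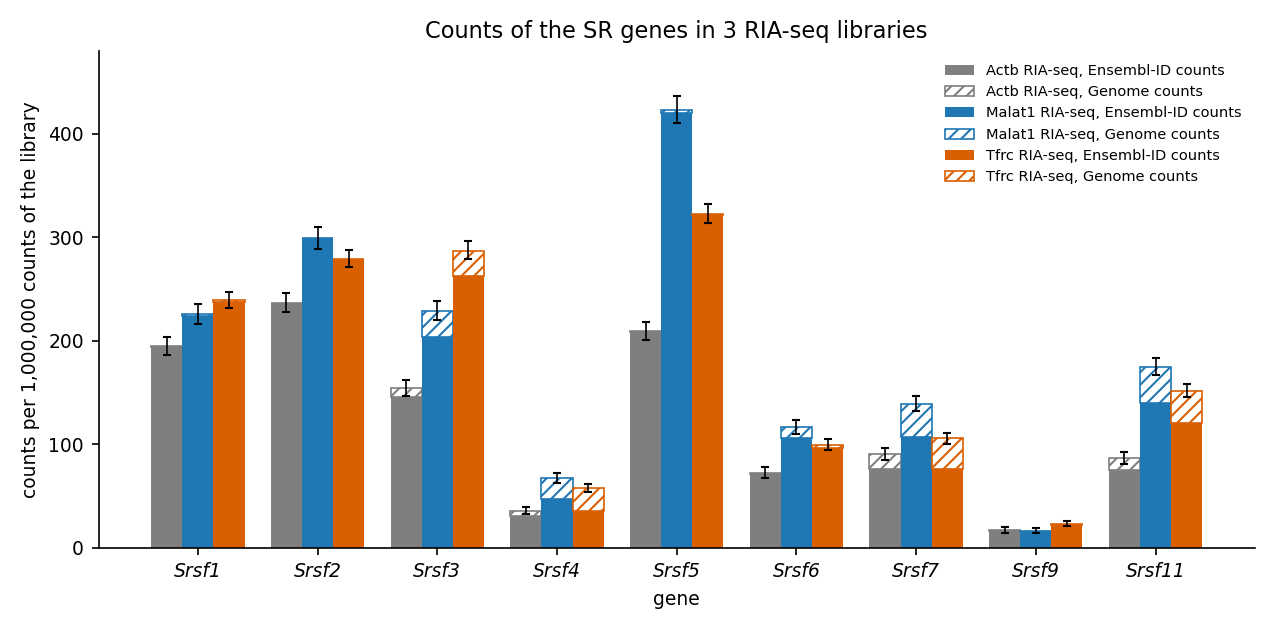
Counts per 1000000 counts of the library (CPM, vertical axis) of the 9 SR genes in the control, Malat1 and Tfrc libraries, with Ensembl-ID counts as filled bars, Genome counts hatched on top and 95% Wilson intervals of the sum as error bars. *Srsf5* had the most CPM in the Malat1 and Tfrc libraries (423 and 323) and *Srsf9* the fewest in all 3 libraries (16.5 to 23.2).

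The first group by role holds *Srsf1*, the founding SR protein and a factor for constitutive and alternative splicing, its close relative *Srsf9*, and *Srsf2*, a speckle protein that binds exonic enhancers. *Srsf1* (ENSMUSG00000018379, chr11:87860875-87867257, + strand) had 2024 summed counts in the control, 2273 in the Malat1 library and 3478 in the Tfrc library, or 195, 226 and 239 CPM. Its share was 1.16 times the control in the Malat1 library (1.09 to 1.23) and 1.23 times in the Tfrc library (1.16 to 1.30), or 0.637 and 0.788 times with the median fold set to 1. Its RNA thus took a slightly larger share of both target libraries, while 18.1% and 28.3% of all genes had a smaller fold than it did.

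*Srsf2* (ENSMUSG00000034120, chr11:116711215-116714408, − strand) had 2460, 3016 and 4064 summed counts in the control, Malat1 and Tfrc libraries, or 236, 299 and 279 CPM. The folds over the control were 1.27 (1.20 to 1.33) and 1.18 (1.12 to 1.24), or 0.695 and 0.758 with the median fold set to 1. The counts of *Srsf2* were listed under 2 identifiers on the same chromosome. ENSMUSG00000034120 had 1552, 1854 and 2590 counts and ENSMUSG00000093603, which the annotation used here does not hold, had 908, 1162 and 1473. The folds of the Malat1 library over the control were 1.23 (1.15 to 1.32) and 1.32 (1.21 to 1.44), so the intervals of the 2 identifiers overlapped. *Srsf2* lies wholly inside *1110005A03Rik* on the opposite strand, which had 937, 1877 and 1341 Ensembl-ID counts, and shares 655 bases with *Mfsd11*. Whether the counting used strand is not given in the sources used here, so reads of the overlap could be assigned to either gene.

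*Srsf9* (ENSMUSG00000029538, chr5:115777186-115783089, + strand) had the fewest counts of the family, 178 in the control, 166 in the Malat1 library and 338 in the Tfrc library. These are 17.1, 16.5 and 23.2 CPM. The fold was 0.963 in the Malat1 library over the control, with an interval from 0.779 to 1.19 that held 1, and 1.36 in the Tfrc library over the control (1.13 to 1.63). With the median fold set to 1 these became 0.529 and 0.871. It was the member with the lowest fold in the first comparison, where 9.89% of all genes lay under it. *Srsf1* and *Srsf9* are close relatives, yet no other gene's annotated exons shared at least 80% of bases over 100 nt with the exons of either, apart from the neighbouring *Gm11508*, which overlaps *Srsf1* by 634 bases.

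*Srsf3* and *Srsf7* encode small SR proteins that shuttle between nucleus and cytoplasm and act as adaptors in mRNA export. *Srsf3* (ENSMUSG00000071172, chr17:29169618-29180311, + strand) had 1607, 2309 and 4177 summed counts in the control, Malat1 and Tfrc libraries, or 154, 229 and 287 CPM. The fold over the control was 1.86 in the Tfrc library (1.75 to 1.97) and 1.48 in the Malat1 library (1.39 to 1.58), so *Srsf3*, like *Srsf1* and *Srsf9*, was higher in the Tfrc library. With the median fold set to 1 the Tfrc value stayed above 1, at 1.19, and the Malat1 value was 0.815. Of all genes, 65.7% had a smaller fold than *Srsf3* in the Tfrc library over the control and 33.6% in the Malat1 library over the control. The coding exons of *Srsf3* shared sequence with 5 other genes, 4 of them pseudogenes. The 2 of these with counts summed to 173, 322 and 298 counts, beside 1607, 2309 and 4177 for *Srsf3* itself. How the authors treated reads with several matches is not given in the sources used here.

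*Srsf7* (ENSMUSG00000024097, chr17:80599429-80606629, − strand) had 942, 1404 and 1539 summed counts, or 90.5, 139 and 106 CPM. The folds over the control were 1.54 in the Malat1 library (1.42 to 1.67) and 1.17 in the Tfrc library (1.08 to 1.27), or 0.845 and 0.749 with the median fold set to 1. *Srsf3* and *Srsf7* therefore had similar folds in the Malat1 library and the highest and the lowest fold of the family in the Tfrc library.

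*Srsf4*, *Srsf5* and *Srsf6* encode larger, related SR proteins with a pair of RNA-recognition motifs. *Srsf4* (ENSMUSG00000028911, chr4:131429532-131457640, + strand) had 375, 679 and 843 summed counts in the control, Malat1 and Tfrc libraries, or 36.0, 67.4 and 57.9 CPM. The folds over the control were 1.87 (1.65 to 2.12) and 1.61 (1.42 to 1.82), and with the median fold set to 1 they were 1.03 in both, at the middle of all genes. *Srsf4* shares 2248 bases with *Gm12992* on the opposite strand, a processed transcript with 160, 357 and 260 summed counts. The annotated exons of *Srsf4* and *Srsf6* shared 80% of bases over an alignment of 260 bases.

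*Srsf5* (ENSMUSG00000021134, chr12:82046491-82051494, + strand) had 2178, 4264 and 4697 summed counts, or 209, 423 and 323 CPM. The fold was 2.02 in the Malat1 library over the control (1.92 to 2.13) and 1.54 in the Tfrc library over the control (1.47 to 1.62), or 1.11 and 0.989 with the median fold set to 1. It was the member with the highest fold in the first comparison, yet 58.7% of all genes lay under it, so *Srsf5* was high within the family and near the middle among all genes. *Srsf6* (ENSMUSG00000016921, chr2:162757264-162762857, + strand) had 755, 1176 and 1450 summed counts, or 72.6, 117 and 99.6 CPM. Its folds were 1.61 (1.47 to 1.76) and 1.37 (1.26 to 1.5), or 0.884 and 0.881 with the median fold set to 1.

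*Srsf11* (ENSMUSG00000055436, chr3:157673437-157699603, − strand) encodes a more distant member that associates with early spliceosome components. Its summed counts were 902, 1761 and 2205, or 86.7, 175 and 152 CPM. The folds were 2.02 (1.86 to 2.18) and 1.75 (1.62 to 1.89), and both stayed above 1 with the median fold set to 1, at 1.11 and 1.12. *Srsf4* and *Srsf11* were the members whose fold stayed above 1 in both comparisons under that scaling.

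The share each gene took of the family's own counts does not depend on the scaling of the libraries. *Srsf5* made up 19.1% of the family in the control (18.4 to 19.8), 25% in the Malat1 library (24.4 to 25.7) and 20.6% in the Tfrc library (20.1 to 21.1). *Srsf3* made up 14.1% (13.4 to 14.7), 13.5% (13.0 to 14.1) and 18.3% (17.8 to 18.8). *Srsf1* made up 17.7% (17.0 to 18.4), 13.3% (12.8 to 13.9) and 15.3% (14.8 to 15.7). Among SR counts, then, *Srsf5* stood out in the Malat1 library and *Srsf3* in the Tfrc library, and *Srsf1* was lower in both target libraries than in the control. *Srsf2* was lower in both as well, at 21.5% in the control and 17.7% and 17.8% in the Malat1 and Tfrc libraries, whereas *Srsf11* was higher, at 7.90%, 10.3% and 9.67%.

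Levels were compared between genes per kb of annotated exon, on Ensembl-ID counts. For *Srsf2* the place in this order depended on its unannotated identifier, whose exons are unknown here. With the annotated identifier alone its level was 50.4, 62.1 and 60.1 CPM per kb in the control, Malat1 and Tfrc libraries, and with both identifiers over the same exons, a choice made after seeing the data, it was 79.8 (76.8 to 83.1), 101 (97.5 to 105) and 94.3 (91.4 to 97.2). The level of *Srsf5* was 52.3 (50.1 to 54.5), 105 (102 to 108) and 80.7 (78.4 to 83.0), so whether *Srsf5* or *Srsf2* stood first was not settled. Of the other genes in the control, *Srsf1* (34.0) and *Srsf7* (32.1) came next with overlapping intervals, then *Srsf3* (28.6) and *Srsf6* (18.7), and *Srsf9*, *Srsf11* and *Srsf4* had the lowest levels, 12.2, 10.6 and 8.46. In the Tfrc library *Srsf3*, at 51.3 (49.7 to 53.0), was ahead of *Srsf1*, at 41.6 (40.3 to 43.0). The intervals of *Srsf9* and *Srsf11* overlapped in the control and Tfrc libraries. The kb counted all annotated exons, including bases outside coding transcripts. These were 58.5% of the exon bases in *Srsf5*, 49.8% in *Srsf3*, 35.8% in *Srsf2* and 35.2% in *Srsf11*. They were 0% in *Srsf7* and 2.66% to 8.75% in *Srsf1*, *Srsf4*, *Srsf6* and *Srsf9*. The order per kb of coding exon was not computed and could differ.

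The next comparison kept both kinds of count apart. With Ensembl-ID counts, the family had 10971, 15746 and 21116 counts in the control, Malat1 and Tfrc libraries, and the folds of the 9 genes had medians of 1.40 in the Malat1 library and 1.32 in the Tfrc library over the control. The medians of all genes were 1.41 and 1.26, so on these counts the SR genes lay at the middle of all genes rather than under it. *Srsf5* alone reached a fold of 2, at 2.01 in the Malat1 library over the control, against 24% of all genes. In the Tfrc library over the control 0 of 9 did, against 14.1%. *Srsf3* was highest there, at 1.80 (1.69 to 1.91), and *Srsf7* lowest, at 0.996 (0.909 to 1.09).

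Genome counts of the family numbered 450, 1302 and 1675. Only *Srsf3*, *Srsf4*, *Srsf6*, *Srsf7* and *Srsf11* reached 10 of them in the control and in each target library. All 5 had a fold of at least 2 in the Malat1 library, against 88.6% of all genes, and all 5 in the Tfrc library, against 79.6%. The shares of such genes were thus near those of all genes, whose median folds of Genome counts were 3.60 and 2.86. *Srsf6* had 18, 109 and 53 Genome counts, a fold of 6.25 in the Malat1 library over the control (3.80 to 10.3) that exceeded the fold of 94.2% of all genes, and one of 2.11 in the Tfrc library (1.23 to 3.59). *Srsf4* had 60, 201 and 330 Genome counts, with folds of 3.46 (2.59 to 4.61) and 3.93 (2.99 to 5.18). Set against each other, the Malat1 library had 2.97 times the share of *Srsf6* Genome counts of the Tfrc library (2.14 to 4.12), whereas for *Srsf4* the ratio was 0.880, with an interval from 0.738 to 1.05 that held 1.

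**Figure D2:**
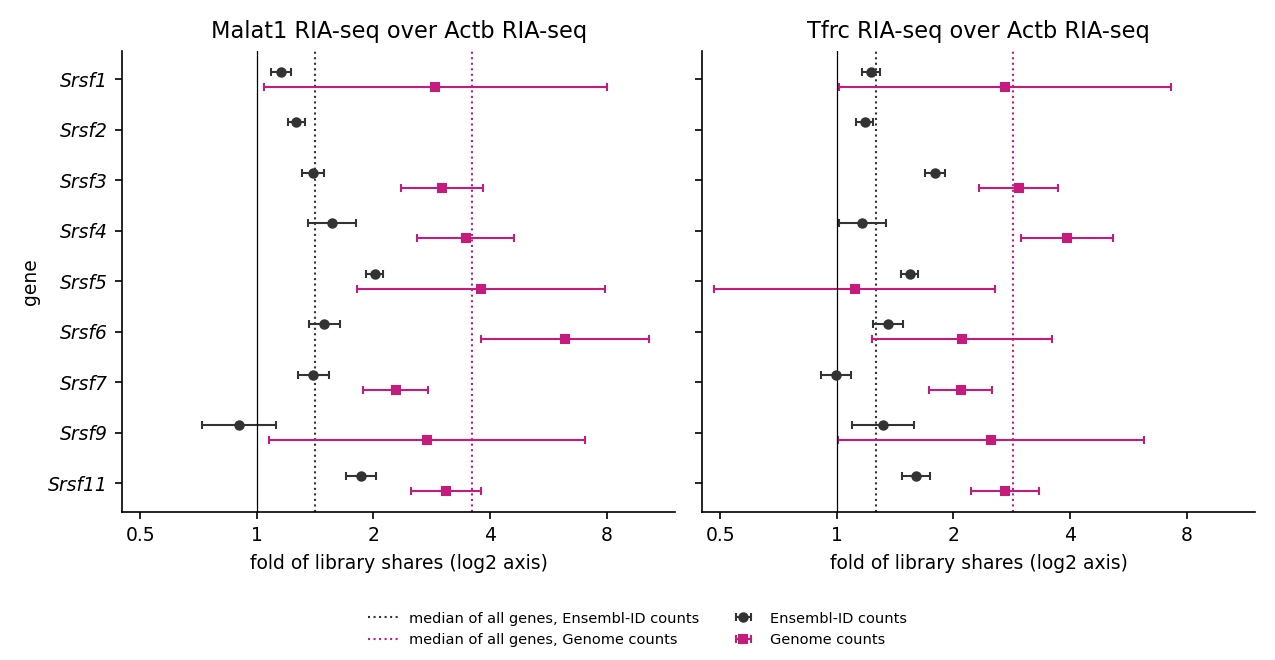
Fold of the library shares over the control (horizontal axis, log2) of the 9 SR genes in the Malat1 library and the Tfrc library, with Ensembl-ID counts as circles, Genome counts as squares, 95% intervals from the counts as bars and dotted lines at the median fold of all genes. The Ensembl-ID folds lay on both sides of the medians of all genes (1.41 and 1.26), and with the median fold of all genes set to 1 in place of the library totals the summed folds of 6 of 9 genes lay under 1 in each comparison. No Genome fold is drawn for *Srsf2*, which had 0, 0 and 1 such counts.

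The Genome share of a gene, the percentage of its summed counts that are Genome counts, compares both kinds within the gene and does not depend on the library totals. It was 3.94% for the family in the control (3.60 to 4.31), 7.64% in the Malat1 library (7.25 to 8.05) and 7.35% in the Tfrc library (7.02 to 7.70). The median gene with at least 10 counts had 11.0%, 26.8% and 25%, and 3, 1 and 2 of the 9 SR genes were above that median. The share was highest in *Srsf4*, at 16%, 29.6% and 39.1% in the control, Malat1 and Tfrc libraries, and in *Srsf7*, at 15.7%, 23.3% and 28.1%. *Srsf11* had 13.0%, 19.8% and 20.2% and *Srsf3* 5.41%, 11.0% and 8.59%. *Srsf1*, *Srsf2* and *Srsf5* stayed under 1% in every library. For *Srsf2* the 0 Genome counts of the control and Malat1 libraries allow a share of up to 0.122% and 0.0995%.

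A chi-square test of the Genome and Ensembl-ID counts of each gene, adjusted over all genes by Benjamini-Hochberg, compared the shares between 2 libraries. Genes with many counts pass it more readily, and all genes here include those with as few as 10 counts in each library. In the Malat1 library over the control 6 of the 8 SR genes tested had a higher share at an adjusted p under 0.05 (*Srsf3*, *Srsf4*, *Srsf6*, *Srsf7*, *Srsf9* and *Srsf11*), against 56.4% of all genes. *Srsf4* had the largest difference, 13.6 percentage points (8.37 to 18.5), and *Srsf7* differed by 7.58 points (4.32 to 10.7). *Srsf6* went from 2.38% to 9.27%, a difference of 6.88 points (4.84 to 8.88). *Srsf1* and *Srsf5* did not pass, with differences of 0.369 points (−0.0443 to 0.808) and 0.361 points (−0.0712 to 0.728). In the Tfrc library over the control 4 of 9 had a higher share (*Srsf3*, *Srsf4*, *Srsf7* and *Srsf11*), against 49.9% of all genes, and *Srsf4* again had the largest difference, 23.1 points (18 to 27.9). The median difference was 6.56 points for the SR genes and 10.6 points for all genes in the first comparison, and 2.84 and 8.23 points in the second.

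The Genome share followed the annotated structure of the genes. The part of the gene span without an annotated exon was 7.29% in *Srsf2*, 10.5% in *Srsf1* and 20.3% in *Srsf5*, the 3 genes with shares under 1%. It was 32.2% in *Srsf6*, 52.2% in *Srsf3*, 67.0% in *Srsf7*, 72.7% in *Srsf11*, 77% in *Srsf9* and 87.3% in *Srsf4*. Over the 9 genes Spearman's rho between this percentage and the Genome share was 0.883 in the control, 0.883 in the Malat1 library and 0.867 in the Tfrc library, a description over genes that share libraries and annotation. *Srsf9* departed from the order, with 77% of its span free of exons and Genome shares of 3.37%, 9.64% and 6.21%. Against the kb of span without an annotated exon, rho was 0.95, 0.95 and 0.933 in the same libraries. On that measure *Srsf9*, at 4.54 kb, stood between *Srsf6*, at 1.80 kb, and *Srsf7*, at 4.83 kb, so its departure depended on the measure. *Srsf5* and *Srsf3* also have annotated retained-intron and decay transcripts, and 58.5% and 49.8% of their exon bases lie outside coding transcripts, against 0% in *Srsf7* and 5.78% in *Srsf4*. *Srsf11*, *Srsf2* and *Srsf1* have both kinds of transcript as well, with 35.2%, 35.8% and 2.66% of exon bases outside coding transcripts. Of these, *Srsf11* had Genome shares of 13.0% to 20.2%, and *Srsf2* and *Srsf1* had shares under 1%. Introns of coding transcripts thus count as annotated exon to a different extent in each gene. All annotated exons together shared at least 80% of bases over 100 nt with 1533 other genes for *Srsf5* and 1012 for *Srsf3*, whereas the exons of coding transcripts did so with 1 and 5. The longest of the matches to all exons was 262 bases of 3988 in *Srsf5* and 804 of 5109 in *Srsf3*. Each match thus covered only a part of the exons, and what the matched stretches are was not tested.

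**Figure D3:**
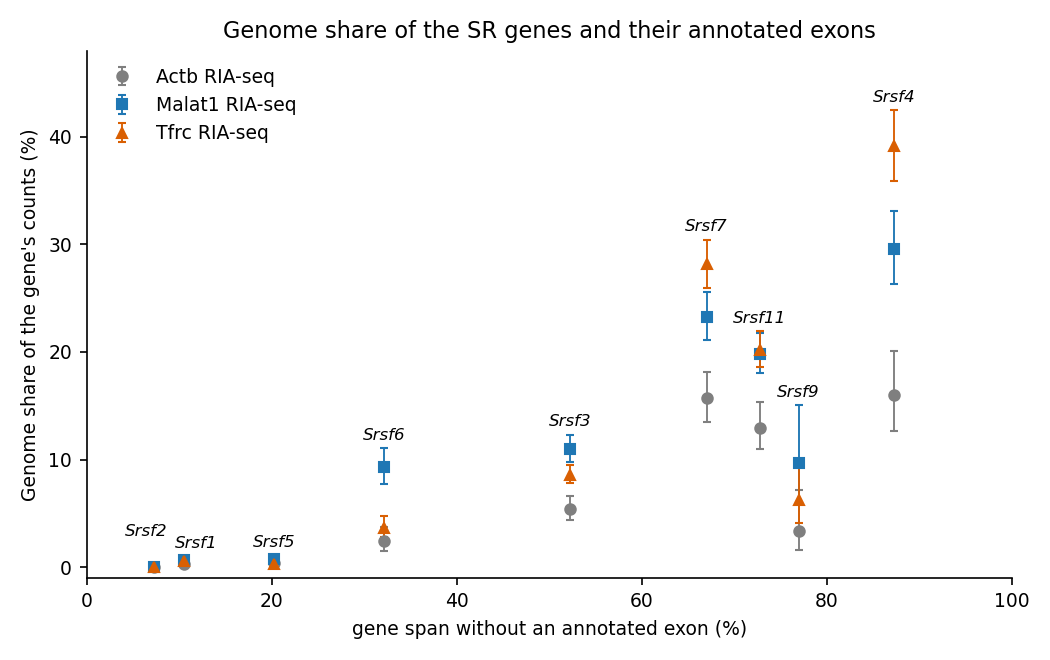
Genome share of each SR gene's counts in percent (vertical axis, 95% Wilson intervals) in the control, Malat1 and Tfrc libraries against the percentage of the gene span without an annotated exon in NCBIM37 (horizontal axis). The share was under 1% in *Srsf1*, *Srsf2* and *Srsf5* and reached 39.1% in *Srsf4*, and *Srsf9* lay under its neighbours.

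The Malat1 library was then set against the Tfrc library, a comparison that does not use the control. The family's fold was 1.08 on the library totals and 0.937 with the median fold set to 1, the median fold of all 16430 genes being 1.15, a shift of 0.21 on the log2 scale. On the library totals the interval lay above 1 for 6 SR genes, against 39.5% of all genes, and below 1 for 3, against 11.9%. An interval is narrower in genes with many counts. The SR genes had 166 or more in each library and all genes compared had 10 or more, so these shares differ in depth. *Srsf7* (1.32, interval 1.23 to 1.42) and *Srsf5* (1.31, interval 1.26 to 1.37) were higher in the Malat1 library, and they stayed above 1 with the median fold set to 1, at 1.14 each. *Srsf3* (0.798, interval 0.759 to 0.840) and *Srsf9* (0.709, interval 0.589 to 0.854) were lower in the Malat1 library, also with the median fold set to 1, at 0.692 and 0.615. *Srsf1* was at 0.944 (0.895 to 0.995) on the library totals, where a chi-square test of its reads in both libraries gave an adjusted p of 0.0661 by Benjamini-Hochberg over all genes. With the median fold set to 1 its fold was 0.818. *Srsf2*, at 1.07, fell to 0.929 under that scaling, and *Srsf4*, *Srsf6* and *Srsf11*, at 1.16, 1.17 and 1.15, came to 1.01, 1.02 and 1.00 and so had no clear direction.

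The Genome share gave another order of the same libraries. It was higher in the Malat1 library than in the Tfrc library for 3 of 9 SR genes (*Srsf3*, *Srsf5* and *Srsf6*), against 16.9% of all genes, and lower for 2 of 9 (*Srsf4* and *Srsf7*), against 5.93%, by the same test and threshold. *Srsf6* had the clearest difference, 5.61 points higher (3.73 to 7.60) with 109 Genome counts against 53. For *Srsf4* the difference, Malat1 minus Tfrc library, was −9.54 points (−14.2 to −4.75). *Srsf5* differed by 0.476 points (0.176 to 0.809) and rested on 33 and 14 Genome counts. *Srsf11*, with 349 and 445 Genome counts, did not pass, and its difference lay between −2.85 and 2.16 points.

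Other genes of the pathway were taken from lists of splicing and decay factors. SR-like splicing regulators carry serine and arginine repeats or work beside SR proteins. Of 22, 21 could be compared, 10 had a fold of at least 2 in the Malat1 library over the control and 4 in the Tfrc library over the control, against 42.1% and 28.6% of all genes, and the medians were 1.98 and 1.82. *Rsrc1* had the largest fold in the Malat1 library among those with at least 100 counts, 3.38 (2.80 to 4.08), and *Rnps1*, which joins the exon junction complex, the smallest, 0.918 (0.840 to 1.00). Of *Rsrc1*, a splicing regulator, the Ensembl-ID counts alone gave a fold of 1.65 (1.24 to 2.19). For the list, Ensembl-ID counts gave 7 and 3 of 21 at a fold of at least 2, against 24% and 14.1% of all genes. The list medians on these counts were 1.73 and 1.51.

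The kinases that phosphorylate the repeats of SR proteins, with the import receptor *Tnpo3*, made up the next list. Of 9, 8 could be compared, 7 had a fold of at least 2 in the Malat1 library over the control and 4 in the Tfrc library over the control, against 42.1% and 28.6% of all genes, with medians of 2.65 and 1.99. *Prpf4b* was highest in the Malat1 library, at 3.58 (3.27 to 3.93), and *Srpk1* lowest, at 1.34 (1.26 to 1.42). On Ensembl-ID counts 5 and 3 of the 8 had a fold of at least 2, against 24% and 14.1% of all genes, and the medians were 2.03 and 1.67, against 1.41 and 1.26 for all genes.

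Of the 9 genes of the early spliceosome, 2 and 0 had a fold of at least 2 in the Malat1 and Tfrc libraries over the control, against 42.1% and 28.6% of all genes, with medians of 1.85 and 1.32. *U2af1*, the small subunit of the factor that binds the 3′ splice site, was at 2.39 (2.24 to 2.55) and *Snrpa*, a protein of the U1 particle, at 0.810 (0.743 to 0.882) in the Malat1 library over the control. Of 15 genes of nonsense-mediated decay and the exon junction complex, 13 could be compared, 5 and 2 had a fold of at least 2, against the same shares of all genes, and the medians were 1.92 and 1.37. *Upf3b* was highest in the Malat1 library, at 4.44 (3.69 to 5.34), and its relative *Upf3a* lowest, at 1.08 (0.892 to 1.30). The SR genes had medians of 1.54 and 1.37, and all genes 1.82 and 1.56. On Ensembl-ID counts the medians were 1.40 and 1.32 for the SR genes and 1.37 and 1.15 for the early spliceosome. No test of one list against another was made.

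**Figure D4:**
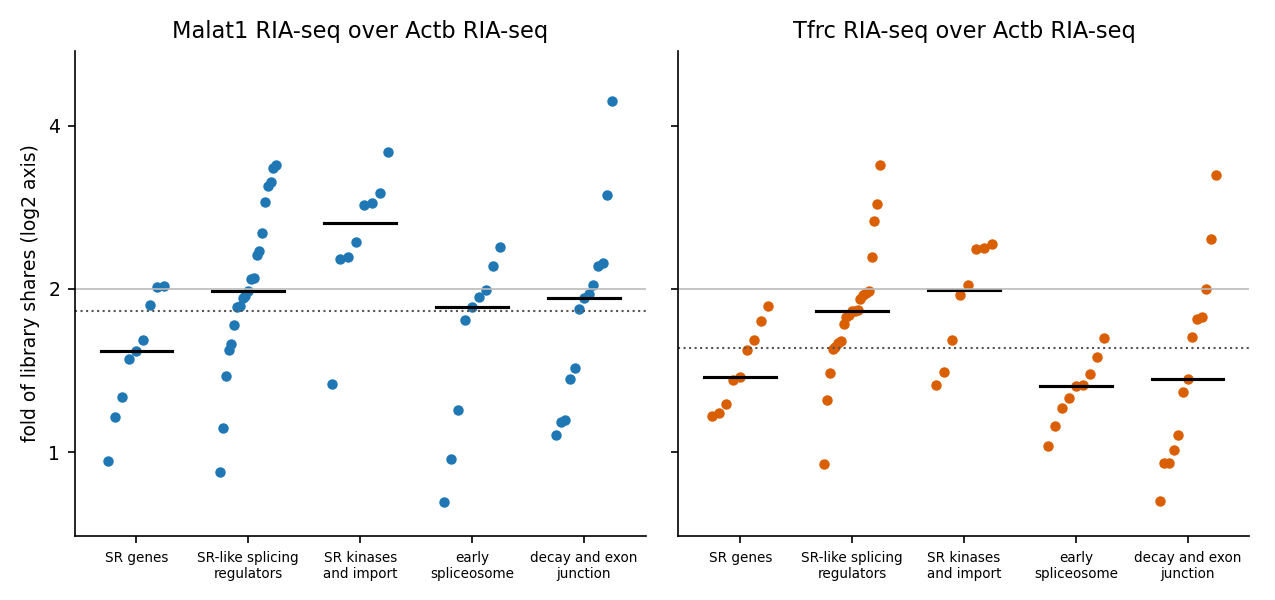
Fold of the library shares over the control (vertical axis, log2, summed counts) of each gene (points) of the SR genes and of 4 lists of splicing and decay factors, with the list median (black bar), a fold of 2 (grey line) and the median of all genes (dotted line, 1.82 and 1.56). The SR genes lay between 0.963 and 2.02 in the Malat1 library and between 1.17 and 1.86 in the Tfrc library on the library totals, and with the median fold of all genes set to 1 only 3 of 9 lay above 1 in each.

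The genes most like *Srsf5*, the member with the most counts, were sought by the root mean square difference of the log2 share over the 3 libraries among 14528 genes. *Lamc1*, a laminin chain, was nearest (0.0367), with 208, 429 and 336 CPM in the control, Malat1 and Tfrc libraries. *Gas5*, a non-coding RNA that hosts small nucleolar RNAs, followed (0.0644) with 225, 427 and 332, and then *Mdn1*, a ribosome assembly factor (0.0810), with 225, 451 and 325. They were less alike in the kind of count: the Genome share was 12.8%, 27.2% and 24.9% in *Lamc1* and 9.82%, 18.8% and 22.1% in *Mdn1*, whereas in *Gas5*, as in *Srsf5*, it stayed under 1% (0.0855%, 0.0233% and 0.165%).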

How the data were processed

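RIA-seq counts of mouse E14 ES cells were analysed, with 1 library per condition, grouped by the labels. The authors deposited raw read counts per gene as whole numbers without normalization, and genes without a count are not listed. The submitters' processing notes name Bowtie 0.12.7 and the builds mm9 and NCBIM37, with no role. Treatment of strand and of reads with several matches is not given in the sources used here. Of 24080 identifiers, 98.6% were in the NCBIM37 annotation, from which positions, exons and sequences were taken.

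Ensembl-ID and Genome counts were kept apart, then summed per gene name and chromosome and divided by the library total. Folds used a pseudocount of 0, all-gene distributions a minimum of 10 counts in each library. A two-sided chi-square test with Benjamini-Hochberg adjustment over all genes compared library shares and Genome shares. For Genome shares only, Fisher's exact test replaced it at expected counts under 5. Differences of shares have Newcombe intervals and shares Wilson intervals, all at 95%. These, and the limit of 3 counts (0.206 to 0.298 CPM), cover counting error only, since PCR reads are not independent molecules. The computation was tested on simulated counts.

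The members and lists were chosen with earlier results of these data known. All 9 members are named, and of each list the genes with the largest and the smallest fold in the Malat1 library over the control among those with at least 100 counts in both, plus the 3 genes nearest to the most counted member. Alternatives were other scalings, each kind of count, a pseudocount of 1, other minimums, leaving out each member and, added after the data were seen, both identifiers of *Srsf2* in its level per kb. Shared sequence was sought with blastn 2.17.0. Python 3.11.15, numpy 2.4.6, pandas 2.3.3, scipy 1.17.1 and matplotlib 3.10.9 were used.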

Additional observations from a re-analysis of the deposited data

How the results depend on the processing

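The fold of the summed SR counts turned in every comparison under the other 3 scalings of the libraries, except in the Tfrc library over the control on totals without the 10 most counted genes. In the Malat1 library over the control it was 1.54, and 0.847 with the median fold set to 1, 0.854 with libraries scaled by the 75th percentile of counts and 0.959 on totals without the 10 most counted genes, of which *Lars2* had 320477, 169680 and 221866 CPM in the control, Malat1 and Tfrc libraries. In the Tfrc library over the control it was 1.43, and 0.915, 0.914 and 1.02 in the same order. In the Malat1 over the Tfrc library it was 1.08, and 0.937, 0.935 and 0.944. Ensembl-ID counts gave 1.48 and 1.38 over the control, and 1.73, 1.54 and, for the Malat1 over the Tfrc library, 1.13 on their own totals. Genome counts gave 2.99, 2.66 and 1.12, and 0.824, 0.926 and 0.890 on their own totals. Leaving out 1 member gave 1.43 (without *Srsf5*) to 1.62 (without *Srsf1*), 1.36 (without *Srsf3*) to 1.49 (without *Srsf2*) and 1.02 (without *Srsf5*) to 1.14 (without *Srsf3*).

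The 2 SR genes at a fold of at least 2 in the Malat1 library over the control became 0 under all 3 other scalings. The number was 1 with Ensembl-ID counts, against 24% of all genes, and 8 of 8 with Genome counts, against 88.6%. With Genome counts on their own total it was 0, and 2 of 8 members were above 1. There *Srsf11* turned to 0.850, *Srsf1* to 0.798, *Srsf3* to 0.829, *Srsf4* to 0.955 and *Srsf7* to 0.630. In the Tfrc library over the control the 0 became 7 of 8 with Genome counts, against 79.6% of all genes. It became 1 with Ensembl-ID counts on their own total. The counts of 8 and 7 include genes with under 10 Genome counts, which the shares of all genes leave out. Under the other scalings and on own totals the share of all genes was not computed. The Genome share of the family in the control, Malat1 and Tfrc libraries was 3.37%, 9.64% and 6.21% as the median of the members, and leaving out 1 member gave 2.88% (without *Srsf7*) to 5.02% (without *Srsf2*), 6.23% (without *Srsf7*) to 9.93% (without *Srsf5*) and 5.84% (without *Srsf7*) to 9.18% (without *Srsf5*). A pseudocount of 1 moved no fold by more than its interval, and the share of all genes at a fold of 2 was 37.6% and 46.6% with minimums of 50 and above 0 counts for the Malat1 library and 20.8% and 36.3% for the Tfrc library. The cause of these moves was not tested. No paired analysis was possible because each condition had 1 library. *Srsf9* had 166 to 338 summed counts, and *Srsf1*, *Srsf2* and *Srsf5* had 0 to 33 Genome counts, so their values have wide counting intervals.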

Other observations

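The tables hold other genes named for serine and arginine repeats, which were picked out after their values were seen. *Sfrs18* (a symbol of the older nomenclature) had 577 summed counts in the control, 2109 in the Malat1 library and 2038 in the Tfrc library, or 55.5, 209 and 140 CPM. Its fold over the control was 3.77 (3.44 to 4.14) in the Malat1 library and 2.53 (2.30 to 2.77) in the Tfrc library, above the folds of all 9 SR genes in both comparisons, and its Genome share was 1.56%, 3.08% and 4.12%. *Srsf10*, a splicing repressor when dephosphorylated, had 90.4, 143 and 178 CPM, a fold of 1.58 (1.46 to 1.72) in the Malat1 library and 1.97 (1.83 to 2.12) in the Tfrc library. Like *Srsf3* it had its higher fold in the Tfrc library, and the Malat1 over the Tfrc library gave 0.803 (0.753 to 0.857). *Srsf12* had 4, 11 and 12 counts, too few to compare.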
